A study of Mus musculus with 2 samples.

Results

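The 35 genes described here encode proteins of the Z-disc, the plate at each end of the sarcomere, and of the structures that anchor sarcomeres to each other and to the membrane. They were chosen by name, 35 of the 55536 annotated genes in the deposited gene tables, and every symbol was found there. The RNA came from hearts of male B6CASTF1/J mice, the hybrid of a B6 laboratory mouse with the wild-derived CAST mouse, at 10 days of age. There were 2 libraries of 1 group, named replicate 2 and replicate 1 after their labels, and no treatment, genotype or stage was compared. Ribosomal RNA had been reduced, strand was kept, ERCC control RNAs had been added, and 300 ng of RNA went into each library. The total expected count, which is the number of reads assigned to rows of the table, was 37907585 in replicate 2 and 38851514 in replicate 1. The males carry separate numbers in the labels but 1 donor record, so the spread given here is the spread between these samples and may be partly technical. With 1 library per animal no test across animals was possible. In whole-heart RNA, fewer cells of a type and less RNA per cell cannot be told apart.

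At the Z-disc, actin filaments of neighbouring sarcomeres overlap with opposite polarity and are cross-linked by alpha-actinin. Titin is anchored there, and a set of adaptor proteins with PDZ, LIM, immunoglobulin or ankyrin repeat domains binds alpha-actinin, titin or filamin and links the disc to signalling enzymes. Desmin filaments and filamin C tie neighbouring discs together, and capping proteins and formins control the ends of the actin filaments. Mutations in many of these genes are known causes of human cardiomyopathy or skeletal myopathy.

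Several of these genes make proteins that differ by an exon or by a start site. Ldb3, called Cypher in the mouse and ZASP in humans, carries alternative internal exons, of which the heart-type exon and the longest of the other exons are shown by their leading 150 bases on mm10 (minus strand of chromosome 14, chr14:34577195-34577344 and chr14:34571772-34571921). Capzb ends in the beta1 exon (chr4:139288861-139288960) or the beta2 exon (chr4:139291003-139291087), both on the plus strand and shown whole. Pdlim3 carries a short-form exon or a long-form exon on the plus strand of chromosome 8, again shown by 150 bases (chr8:45908469-45908618 and chr8:45913697-45913846). The letters are coding sequence of the GENCODE M21 transcripts, from exons that are coding in the named form and not in the other. Whether the same bases lie in an untranslated part of the other form was not checked.
Ldb3 heart-type exon: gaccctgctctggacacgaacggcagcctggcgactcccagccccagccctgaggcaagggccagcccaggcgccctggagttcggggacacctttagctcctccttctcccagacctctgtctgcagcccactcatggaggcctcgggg
Ldb3 other exon: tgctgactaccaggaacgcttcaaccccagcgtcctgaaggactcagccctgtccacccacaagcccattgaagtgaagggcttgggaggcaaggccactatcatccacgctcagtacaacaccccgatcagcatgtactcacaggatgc
Capzb beta1 exon: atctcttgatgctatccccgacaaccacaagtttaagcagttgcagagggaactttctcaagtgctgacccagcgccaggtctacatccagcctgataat
Capzb beta2 exon: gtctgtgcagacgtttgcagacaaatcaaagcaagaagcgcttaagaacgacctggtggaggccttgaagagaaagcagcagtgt
Pdlim3 short-form exon: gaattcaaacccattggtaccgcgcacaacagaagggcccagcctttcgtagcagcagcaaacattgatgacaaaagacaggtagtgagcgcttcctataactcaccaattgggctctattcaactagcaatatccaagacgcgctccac
Pdlim3 long-form exon: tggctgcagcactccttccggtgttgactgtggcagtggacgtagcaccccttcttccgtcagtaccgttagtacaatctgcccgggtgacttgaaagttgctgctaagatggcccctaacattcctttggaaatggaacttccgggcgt

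RefSeq promoters of the GRCm38.p6 build, from 250 bases before to 50 bases after an annotated start, were matched by symbol for 28 members with 42 promoters, and 7 members had no entry. They were searched on both strands for the MEF2 motif and for the CArG box that SRF binds, both known control elements of muscle genes. The MEF2 motif was found in 6 of the 42 member promoters (14.3%), against 3.19% of all 32817 promoters of this length. A CArG box was found in 6 of the 42 (14.3%), against 1.63% of all promoters. The MEF2 matches lay in Myoz2, Fhl2, Synpo2, Xirp2 and both promoters of Synpo2l. The CArG matches lay in Fhl1, Nebl, both promoters of Fhl2 and both promoters of Ldb3, whose windows overlap and share the match. Transcripts that begin within 500 bases of the matched Fhl1 start held 23.6% of the gene's transcript level in replicate 2 and 11.1% in replicate 1. For the matched Nebl start these shares were 6.16% in replicate 2 and 10.6% in replicate 1. For Ldb3 they were 100% in both libraries, and those of Fhl2 are given further on. Other motifs were near their share in all promoters, with CATTCC (the MCAT element) in 16.7% against 14.7%, GATAA (the GATA motif) in 26.2% against 25.4%, and TATAAA (the TATA box) in 16.7% against 13.6%. Of the MEF2 matches, 2 of 6 overlapped a TATAAA match. These are descriptions of letters in a window, not of bound sites.

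The promoters of Myoz2, Fhl2 and Synpo2l are shown because the motif lies close to the start (Myoz2, Fhl2) or because the gene has separate starts whose transcripts are compared further on (Fhl2, Synpo2l). Capitals mark MEF2, CArG and TATAAA matches. All are on the minus strand and printed 5′ to 3′: Myoz2 at chr3:123034938-123035237, Fhl2 at chr1:43196712-43197011 (upstream) and chr1:43163912-43164211 (downstream), and Synpo2l at chr14:20668305-20668604 (upstream) and chr14:20664525-20664824 (downstream).
Myoz2 promoter: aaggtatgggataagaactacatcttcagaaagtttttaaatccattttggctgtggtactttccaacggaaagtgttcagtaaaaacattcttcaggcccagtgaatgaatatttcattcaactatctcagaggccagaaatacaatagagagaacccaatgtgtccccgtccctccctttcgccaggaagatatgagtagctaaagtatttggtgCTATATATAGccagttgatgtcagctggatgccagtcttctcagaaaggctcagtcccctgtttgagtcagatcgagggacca
Fhl2 upstream promoter: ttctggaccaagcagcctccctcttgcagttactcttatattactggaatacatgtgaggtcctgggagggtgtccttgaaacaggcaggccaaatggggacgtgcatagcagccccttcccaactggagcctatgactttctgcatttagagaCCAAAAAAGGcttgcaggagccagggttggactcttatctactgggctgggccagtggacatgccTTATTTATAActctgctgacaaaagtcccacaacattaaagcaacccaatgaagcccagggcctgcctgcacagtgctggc
Fhl2 downstream promoter: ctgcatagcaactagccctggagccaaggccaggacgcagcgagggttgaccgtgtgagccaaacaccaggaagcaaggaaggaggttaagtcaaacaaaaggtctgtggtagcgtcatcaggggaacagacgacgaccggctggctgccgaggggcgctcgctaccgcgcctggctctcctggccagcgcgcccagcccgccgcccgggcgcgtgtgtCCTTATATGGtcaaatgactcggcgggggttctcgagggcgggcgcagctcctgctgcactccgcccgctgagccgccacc
Synpo2l upstream promoter: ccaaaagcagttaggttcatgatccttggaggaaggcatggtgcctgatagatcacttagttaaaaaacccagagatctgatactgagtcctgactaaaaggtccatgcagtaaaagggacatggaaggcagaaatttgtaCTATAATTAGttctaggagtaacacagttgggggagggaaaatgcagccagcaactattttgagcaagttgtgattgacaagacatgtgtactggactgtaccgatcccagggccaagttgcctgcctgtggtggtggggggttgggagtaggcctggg
Synpo2l downstream promoter: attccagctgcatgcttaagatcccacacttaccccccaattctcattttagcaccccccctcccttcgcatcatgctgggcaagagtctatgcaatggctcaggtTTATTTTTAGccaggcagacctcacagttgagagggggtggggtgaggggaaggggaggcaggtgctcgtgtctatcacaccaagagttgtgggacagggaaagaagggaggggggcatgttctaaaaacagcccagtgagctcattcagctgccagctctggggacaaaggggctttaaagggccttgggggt
The MEF2 match of Myoz2 began 33 bases before the start. In the upstream Fhl2 promoter the MEF2 match began 31 bases and the CArG box 96 bases before the start. In the downstream Fhl2 promoter a different CArG box began 31 bases before the start.

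Most of the list was abundant. Detection required 1 TPM in each library, where TPM is a transcript level corrected for length and depth. By that rule 32 of 35 members were detected, and the 3 that were not were Neb, Myoz1 and Ankrd2. The median level of the members was 89.05 TPM in replicate 2 and 104.1 TPM in replicate 1 (96.6 ± 10.6, SD, n = 2), against a median over all detected genes of 9.11 TPM in replicate 2 and 10.5 TPM in replicate 1. By mean level, 17 members stood at 100 TPM or more, 13 between 10 and 100, 3 between 1 and 10 and 2 under 1. Among 22015 nuclear protein-coding genes, 21 members ranked in the top 1000 and 4 in the top 100. Together they held 0.556% of all TPM in replicate 2 and 0.610% in replicate 1, and 1.48% of nuclear protein-coding TPM in replicate 2 and 1.42% in replicate 1. The 3 highest, Actn2, Csrp3 and Fhl2, made up 35.8% of the list's TPM in replicate 2 and 37.0% in replicate 1. In the order of levels, 18 of the 34 neighbouring pairs had overlapping values in the libraries, so their order is not settled by these data. The coefficient of variation of TPM over the detected members had a median of 10.97% and ran to 43.4% for Ankrd1.

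**Figure D1:**
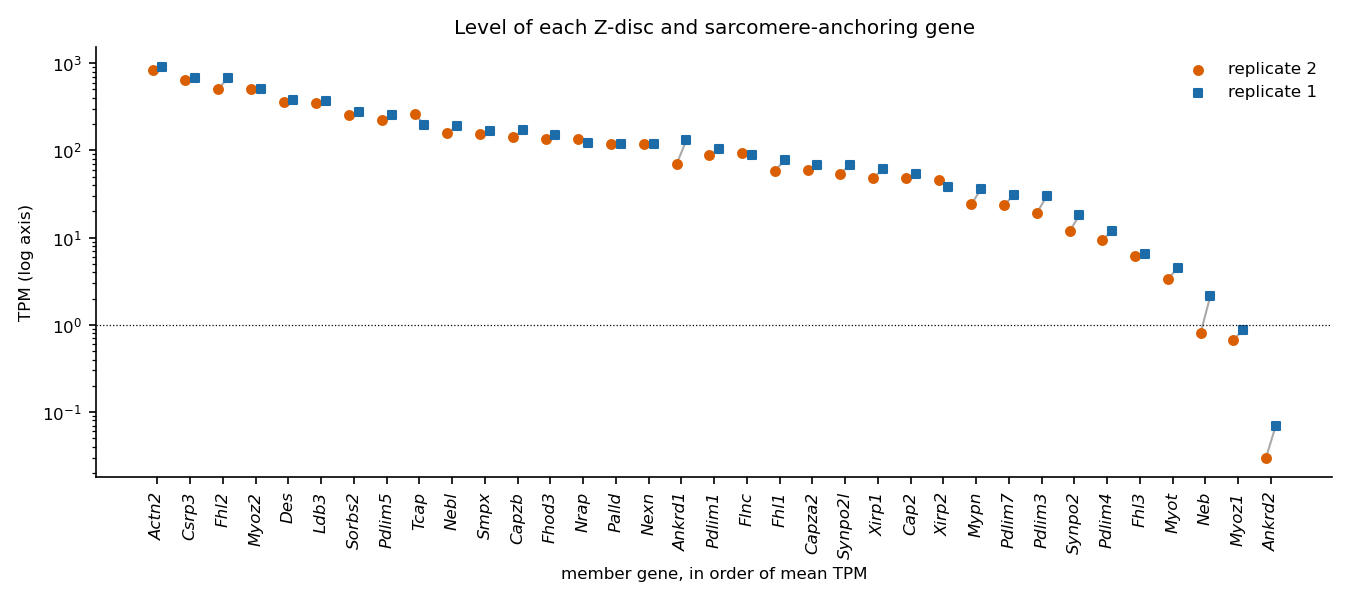
TPM of each of the 35 members on a log axis, in order of mean level, with replicate 2 as circles and replicate 1 as squares joined by a line; the dotted line is 1 TPM. Actn2 led at 830.4 TPM in replicate 2 and 915.5 TPM in replicate 1, and Neb, Myoz1 and Ankrd2 were below 1 TPM in at least 1 library.

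The core of the disc was led by Actn2 (chr13:12269426-12340760), the muscle alpha-actinin. It stood at 830.4 TPM in replicate 2 and 915.5 TPM in replicate 1 (873 ± 60.2), rank 32 among nuclear protein-coding genes. Csrp3 (chr7:48830398-48848033), the muscle LIM protein of the disc, stood at 649 TPM in replicate 2 and 668 TPM in replicate 1 (659 ± 13.9). Tcap (chr11:98383811-98384953), telethonin, joins the ends of titin molecules in the disc. Its level was 264 TPM in replicate 2 and 196 TPM in replicate 1, so replicate 2 was the higher. Nexn, nexilin, an actin-binding protein that stabilises the disc, stood at 117 TPM in replicate 2 and 118 TPM in replicate 1. These 4 anchors held 33.4% of the list's TPM in replicate 2 and 31.1% in replicate 1.

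Actn2 led the alpha-actinins. Its non-muscle relatives Actn1 and Actn4 stood at 22.2 and 46.3 TPM in replicate 2 and 30.0 and 72.7 TPM in replicate 1, so that Actn2 was 33.7-fold over Actn1 and 15.01-fold over Actn4 as the mean of both libraries. Actn3, the alpha-actinin of fast skeletal fibres, had 0.16 TPM in replicate 2 and 0.22 TPM in replicate 1. Csrp3 was 16.6-fold over Csrp1 and 11.6-fold over Csrp2, relatives known from smooth muscle and fibroblasts. These folds and those below are of TPM with 0.1 added, and for partners near 0 they depend on that addition.

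Calsarcins bind both alpha-actinin and the phosphatase calcineurin. Myoz2 (calsarcin-1, known from heart and slow muscle) stood at 508 TPM in replicate 2 and 502 TPM in replicate 1. Myoz1 (calsarcin-2, of fast skeletal muscle) had 22 counts (0.67 TPM) in replicate 2 and 28 counts (0.87 TPM) in replicate 1. Myoz3 had 3 counts in replicate 2 and 0 counts in replicate 1, at or under the floor of 3 counts. The calsarcin RNA of these hearts was thus almost all Myoz2, 584-fold over Myoz1.

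Among the PDZ-LIM proteins, which bind alpha-actinin through the PDZ domain and kinases through LIM domains, Ldb3 was the highest. It stood at 347 TPM in replicate 2 and 367 TPM in replicate 1 (357 ± 13.8). Pdlim5 (ENH) followed at 221 TPM in replicate 2 and 258 TPM in replicate 1, and Pdlim1 (CLP36) at 89.05 TPM in replicate 2 and 104.1 TPM in replicate 1. These were well above the remaining members of the family. Pdlim7 (Enigma) had 23.4 TPM in replicate 2 and 31.0 TPM in replicate 1, Pdlim3 (ALP) 19.2 TPM in replicate 2 and 29.6 TPM in replicate 1, and Pdlim4 (RIL) 9.46 TPM in replicate 2 and 11.8 TPM in replicate 1. Ldb3 exceeded Pdlim5 by 1.498-fold, under the 2-fold rule used for pairs, while Pdlim5 was 2.47-fold over Pdlim1, 8.82-fold over Pdlim7, 9.97-fold over Pdlim3 and 22.4-fold over Pdlim4.

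The FHL family consists of proteins built almost wholly of LIM domains. Fhl2, the heart member, stood at 509.7 TPM in replicate 2 and 670.4 TPM in replicate 1 (590.0 ± 114). Fhl1, known for its part in hypertrophic signalling at the titin I-band, had 58.0 TPM in replicate 2 and 77.7 TPM in replicate 1. Fhl3, a skeletal muscle member, had 6.14 TPM in replicate 2 and 6.55 TPM in replicate 1. Fhl2 was 8.69-fold over Fhl1 and 90.8-fold over Fhl3.

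The myotilin-palladin family carries immunoglobulin domains that bind actin and alpha-actinin. Palld, palladin, led with 119 TPM in replicate 2 and 117 TPM in replicate 1. Mypn, myopalladin, which links nebulin-type proteins and Ankrd1 to the disc, had 24.0 TPM in replicate 2 and 36.2 TPM in replicate 1. Myot, myotilin, best known from skeletal muscle, had 3.37 TPM in replicate 2 and 4.44 TPM in replicate 1. Palld was 3.99-fold over Mypn, the only pair of the 27 compared in which the gene written second led by 2-fold in both libraries, and Mypn was 7.46-fold over Myot.

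In the nebulin family, Nebl, whose nebulette protein lies at the cardiac Z-disc, stood at 159 TPM in replicate 2 and 190.3 TPM in replicate 1. Nrap, a nebulin-related protein of myofibril assembly and cell junctions, stood at 134 TPM in replicate 2 and 121 TPM in replicate 1. Neb, nebulin itself, the ruler-like protein of skeletal thin filaments, had 271 counts in replicate 2 and 515 counts in replicate 1. Over its great length that is 0.80 TPM in replicate 2 and 2.14 TPM in replicate 1. Nebl was 123-fold and Nrap 89.95-fold over Neb per length.

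Muscle ankyrin repeat proteins bind titin and enter the nucleus on mechanical load. Ankrd1 (CARP; chr19:36111961-36120099) had 69.45 TPM in replicate 2 and 131 TPM in replicate 1, and Ankrd23 (DARP), which is not a member, had 64.2 TPM in replicate 2 and 79.0 TPM in replicate 1. The pair did not differ by 2-fold in both libraries. Ankrd2 (ARPP), known from slow skeletal muscle, had 1 count in replicate 2 and 2 counts in replicate 1, which is at or under the floor of 3 counts that stands for a count of 0, so no fold between the libraries is given.

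Desmin and filamin C connect the discs sideways. Des stood at 356 TPM in replicate 2 and 379.7 TPM in replicate 1, and Flnc at 94.2 TPM in replicate 2 and 89.55 TPM in replicate 1. Relatives known from other cells were within 2-fold of them in both libraries. Vim, the intermediate filament of fibroblasts and endothelium, had 274 TPM in replicate 2 and 416 TPM in replicate 1. Flna, the ubiquitous filamin, had 74.4 TPM in replicate 2 and 102 TPM in replicate 1. In both pairs the muscle gene was ahead in replicate 2 and the other gene in replicate 1, although in the other quantification Des was ahead of Vim by a mean log2 ratio of 0.79.

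The Xin repeat proteins bind actin and filamin C and sit at the intercalated disc. Xirp1 had 47.7 TPM in replicate 2 and 61.4 TPM in replicate 1, and Xirp2 had 45.3 TPM in replicate 2 and 38.5 TPM in replicate 1, a pair within 2-fold in both libraries. Among the synaptopodins, Synpo2l (CHAP) had 54.0 TPM in replicate 2 and 68.5 TPM in replicate 1. Synpo2, myopodin, also a smooth muscle protein, had 11.8 TPM in replicate 2 and 18.0 TPM in replicate 1, and Synpo2l was 4.15-fold over it.

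The genes of actin filament ends and turnover were all detected. Capzb and Capza2 encode subunits of CapZ, which caps the barbed ends in the disc. Capzb had 141 TPM in replicate 2 and 169.7 TPM in replicate 1, and Capza2 had 58.95 TPM in replicate 2 and 68.5 TPM in replicate 1. Capza2 was 2.62-fold over its relative Capza1, and the germ-cell gene Capza3 had 0 counts in both libraries. Fhod3, a cardiac formin needed for sarcomere organisation, had 136 TPM in replicate 2 and 149 TPM in replicate 1, 32.3-fold over Fhod1. Cap2, which recycles actin monomers, had 47.8 TPM in replicate 2 and 53.0 TPM in replicate 1, and its lead of 1.62-fold over Cap1 stayed under 2-fold. Of the remaining members, Sorbs2 (ArgBP2, a scaffold of the disc and cell junctions) had 252 TPM in replicate 2 and 278 TPM in replicate 1, and Smpx, a small protein of striated muscle, had 156 TPM in replicate 2 and 165 TPM in replicate 1.

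Over all 27 pairs of related genes, the gene written first led by at least 2-fold in both libraries in 20, its partner in 1, and 6 stayed under that bound. The 6 were Ankrd1 with Ankrd23, Xirp2 with Xirp1, Flnc with Flna, Des with Vim, Ldb3 with Pdlim5, and Cap2 with Cap1. In the other deposited quantification 25 of 27 pairs pointed the same way, and the 2 that did not, Ankrd1 with Ankrd23 and Flnc with Flna, were among the 6.

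**Figure D2:**
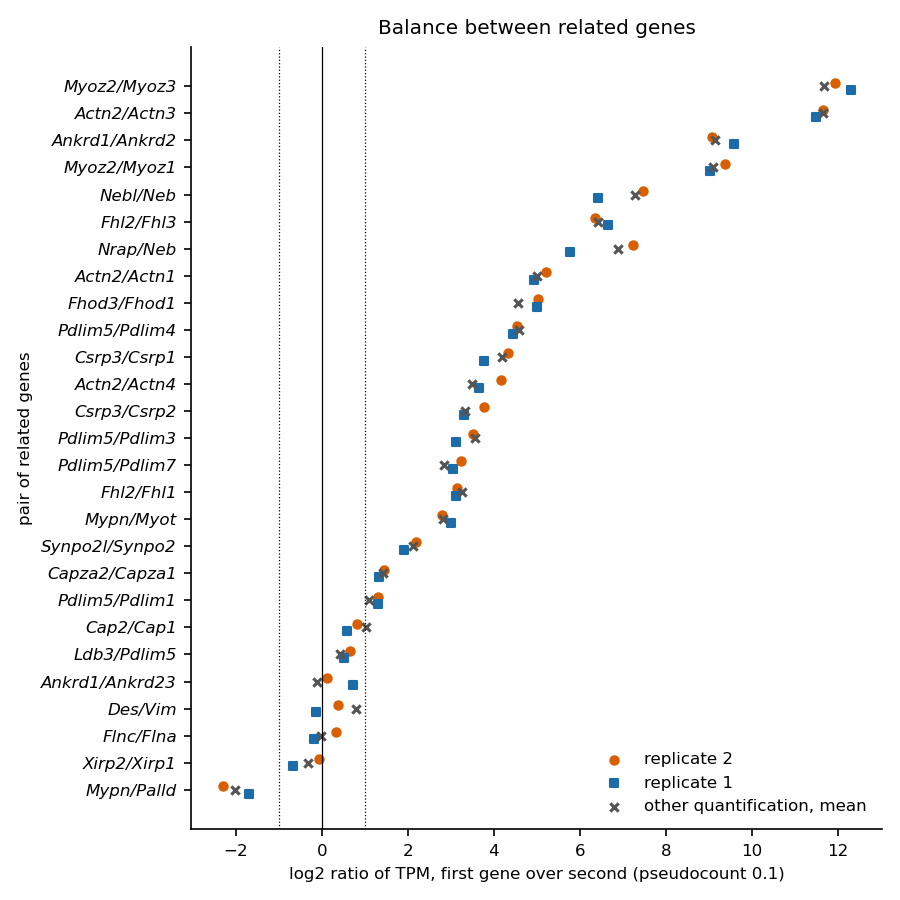
Log2 ratio of TPM between related genes, first gene over second with 0.1 TPM added, in replicate 2 (circles), replicate 1 (squares) and as the mean in the other quantification (crosses); dotted lines mark 2-fold. Ratios run from -1.996 for Mypn over Palld to 12.11 for Myoz2 over Myoz3, as means of both libraries, and the pairs near 0 are Flnc with Flna and Des with Vim.

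Other genes of the Z-disc and its surroundings were given by a list of 50 genes that were not members. Of these, 42 were detected, with a median of 28.3 TPM in replicate 2 and 33.3 TPM in replicate 1. Ttn, the giant titin anchored in the disc, stood at 1101 TPM in replicate 2 and 944 TPM in replicate 1. Next in its list of disc scaffolds came Cryab, a small heat shock protein that binds desmin and titin, at 522 TPM in replicate 2 and 549 TPM in replicate 1. Crip2 led the other LIM proteins at 464 TPM in replicate 2 and 526 TPM in replicate 1. Among genes of filament ends, Lmod2, leiomodin, which lengthens thin filaments at the pointed end, had 209 TPM in replicate 2 and 144 TPM in replicate 1. Cfl1 and Cfl2, cofilins that sever actin, had 138 and 162 TPM in replicate 2 and 208 and 172 TPM in replicate 1, so both were below Lmod2 in replicate 2 and above it in replicate 1. In the other quantification this held for Cfl1 only. There Cfl2 had 381 TPM in replicate 2 and 347 TPM in replicate 1, above the 273 and 172 TPM of Lmod2. Below 1 TPM stood, besides Actn3, Myoz3 and Capza3, the skeletal muscle gene Kbtbd13, the LIM genes Fhl4 and Fhl5, and on average the smooth muscle leiomodin Lmod1. The 4 listed genes of the vinculin layer were all detected, with a median of 43.8 TPM in replicate 2 and 48.7 TPM in replicate 1.

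The animals were compared by rounded expected counts, scaled by edgeR's TMM factors with 0.5 added, as the log2 ratio of replicate 2 over replicate 1 with an exact 95% interval that covers counting error only. A gene was measured at a mean count of 50 or more, which held for 33 members and for 13211 genes in all. It was counted as different when the ratio passed 1.5-fold and the interval left out equality. By this rule 1 member was higher in replicate 2, Tcap, where 3.13% of all measured genes were. The members lower in replicate 2 were 2, Ankrd1 and Neb, where 3.14% of all measured genes were. No member passed 2-fold, against 1.79% of all measured genes. The median log2 ratio was 0.06 for the members and 0.01 for all measured genes, and the median size regardless of sign was 0.16 for the members and 0.14 for all. By these medians the list differed between the animals about as much as all measured genes. Those genes were not matched to the members in level, and counting error adds more to the ratios of genes with few counts. The interval left out equality for 27 of the 33 members (81.8%), 16 higher and 11 lower, against 42.9% of all measured genes, and this interval narrows as counts rise.

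Tcap had 7169 counts in replicate 2 and 5024 counts in replicate 1. Its log2 ratio was 0.65 (0.60 to 0.71), which is 1.57-fold higher in replicate 2. With scaling to the total count (0.55) or to the ERCC controls (0.58) it fell short of 1.5-fold. The next highest were Xirp2, with 17239 counts in replicate 2 and 13823 counts in replicate 1 and a log2 ratio of 0.46 (0.43 to 0.49), and Nrap, with 22275 counts in replicate 2 and 18934 counts in replicate 1 and a log2 ratio of 0.38 (0.35 to 0.40). Neither passed 1.5-fold.

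Ankrd1 had 4064 counts in replicate 2 and 7225 counts in replicate 1. Its log2 ratio was -0.69 (-0.74 to -0.63), which is 1.61-fold higher in replicate 1. Neb had 271 counts in replicate 2 and 515 counts in replicate 1 and a log2 ratio of -0.78 (-1.002 to -0.57), 1.72-fold higher in replicate 1. Synpo2 came next with 2603 counts in replicate 2 and 4071 counts in replicate 1 and a log2 ratio of -0.50 (-0.58 to -0.43). It stayed under 1.5-fold on this scale and passed it with scaling to the total count (-0.61) and by TPM (-0.61). By the rule on TMM-scaled counts, then, 1 of the 33 measured members was higher in replicate 2, beside 3.13% of all measured genes. Lower in replicate 2 were 2 of the 33, beside 3.14% of all measured genes. The call for Tcap was lost with total-count and ERCC scaling and by TPM.

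**Figure D3:**
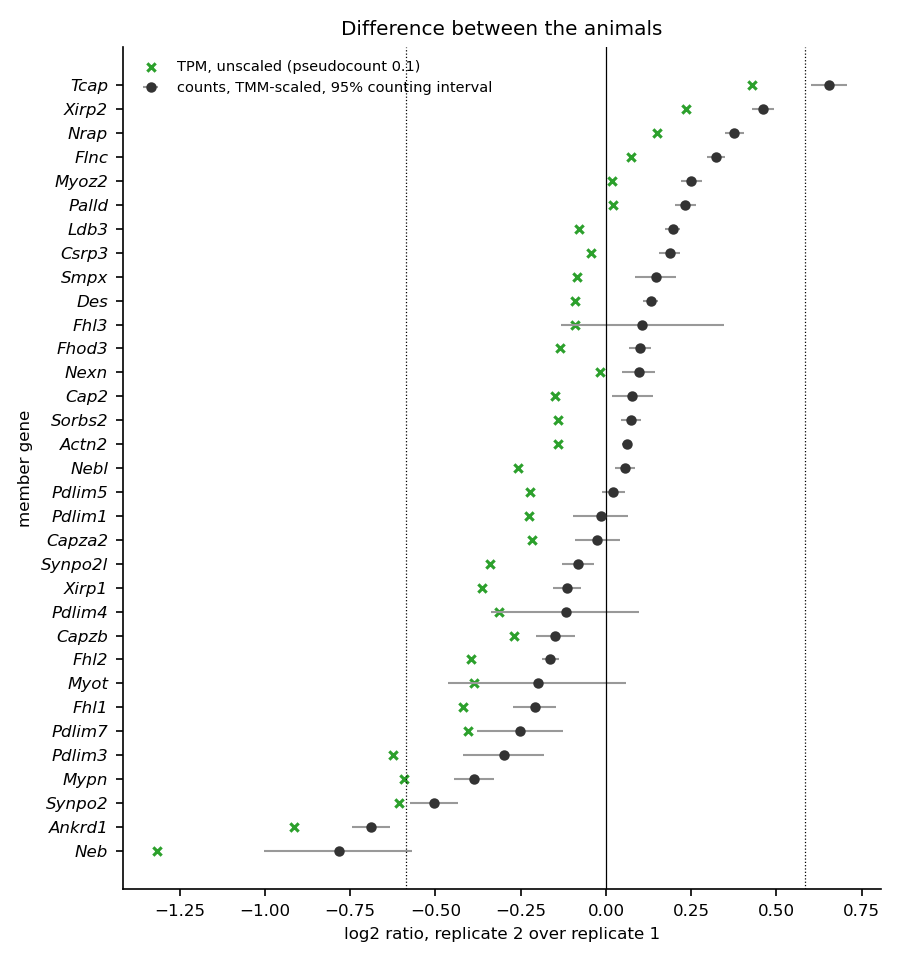
Log2 ratio of replicate 2 over replicate 1 for the 33 measured members, as TMM-scaled counts with 95% counting intervals (dots) and as unscaled TPM with 0.1 added (crosses); dotted lines mark 1.5-fold. By counts Tcap lies beyond 1.5-fold above and Ankrd1 and Neb below, and the TPM ratios lie to the left of the count ratios for every member shown.

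The direction of a small difference depends on the scale. On the TPM scale the median log2 ratio of all measured genes was -0.21 and that of the measured members -0.22, so 29 of 35 members read lower in replicate 2 by TPM. On that scale 5 members passed 1.5-fold, all lower in replicate 2, namely Ankrd1, Neb, Synpo2, Pdlim3 (-0.63) and Mypn (-0.59), and Tcap did not. On the TMM-scaled counts 18 of the 33 measured members were above 0 and 15 below. The members' median lay beside that of all genes on both scales.

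Markers of adipocytes, atrium and smooth muscle had the largest median ratios between the libraries. The medians of the fibroblast, endothelial and cardiomyocyte markers were also larger in size than that of the members, but no gene of these lists passed 1.5-fold. All 5 adipocyte markers passed 1.5-fold downward in replicate 2 (median log2 ratio -4.95), and their levels summed to 31.2 TPM in replicate 2 and 419.7 TPM in replicate 1. All 5 atrial markers were lower too, with a median of -2.05 and a sum of 269 TPM in replicate 2 and 1504 TPM in replicate 1. Nppa, an atrial peptide, had 116 TPM in replicate 2 and 753 TPM in replicate 1. Of 6 smooth muscle markers, 4 passed 1.5-fold downward and all 6 were below 0, with a median of -0.64 and a sum of 269 TPM in replicate 2 and 399 TPM in replicate 1. The 7 fibroblast markers had a median of -0.42 and a sum of 1197 TPM in replicate 2 and 1894 TPM in replicate 1, and the 5 endothelial markers a median of -0.11 and a sum of 672 TPM in replicate 2 and 969 TPM in replicate 1. The 7 cardiomyocyte markers, among them Myh6, Tnnt2 and Ryr2, were all detected and had a median of 0.19 and a sum of 26074 TPM in replicate 2 and 28006 TPM in replicate 1, with none past 1.5-fold. The part of these differences in the ratios of Ankrd1, Neb, Synpo2 and Tcap was not tested. Of 13 skeletal muscle markers 3 were detected, Ckm and Acta1, which heart also expresses, and Tnni2 at 1.23 TPM in replicate 2 and 1.81 TPM in replicate 1. In the first quantification 2 of the list, Myh4 and Myod1, had 0 counts in both libraries. The other undetected ones had reads in at least 1 library, the most for Myh8 with 30.9 counts in replicate 2 and 42.75 counts in replicate 1. The skeletal list summed to 1297 TPM in replicate 2 and 1457 TPM in replicate 1, nearly all of it Ckm and Acta1.

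**Figure D4:**
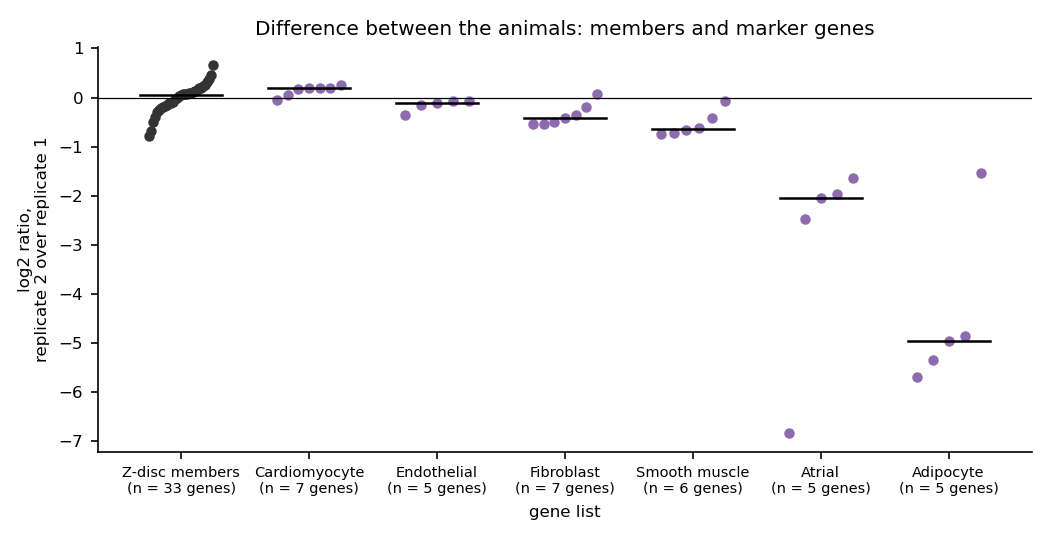
Log2 ratio of replicate 2 over replicate 1 (TMM-scaled counts) for each measured gene of the member list and of 6 marker lists, with a bar at the median of each list. The members centre on 0.06 and the cardiomyocyte markers on 0.19, while the atrial and adipocyte markers lie at -2.05 and -4.95.

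Among the 50 other genes of the disc, 44 were measured, with a median log2 ratio of -0.13. Lmod2 was the only one past 1.5-fold upward, at 0.76, and 4 were lower in replicate 2. These 4 were Filip1, a filamin-binding protein (-0.60), Lmod1 (-0.73), which is also among the smooth muscle markers, and the epithelial keratins Krt8 (-0.996) and Krt18 (-0.83).

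The transcripts of the members were read from the same tables, with 242 annotated transcripts and a median of 5 per gene. As the mean of both libraries, for 16 of the 32 detected members no transcript held 60% of the gene's TPM, for 7 the leading transcript held 60% to 90%, and for 9 over 90%. The leading transcript was the same in both deposited quantifications for 27 of 35 members and differed for Capzb, Csrp3, Nebl, Nexn, Pdlim5, Smpx, Sorbs2 and Synpo2. A form was therefore described by the exons it contains, summed over transcripts. The exons of each gene were chosen after transcript values had been seen, and shares are of the gene's TPM unless said otherwise.

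Ldb3 transcripts with the heart-type exon printed above made up 91.2% of the gene in replicate 2 and 91.1% in replicate 1. Transcripts with the other exons held 8.77% in replicate 2 and 8.89% in replicate 1. The other quantification put the heart-type share of TPM lower, at 71.0% in replicate 2 and 69.8% in replicate 1, with the same order. By the counts of that quantification the forms were about level. There the heart-type share was 52.9% in replicate 2 and 47.9% in replicate 1, so the order differed between the libraries. At the other end of the protein, the long forms that reach the LIM domains held 40.8% in replicate 2 and 38.6% in replicate 1, and the short forms the rest. By expected counts, which weigh long transcripts more, the long forms held 69.7% in replicate 2 and 67.4% in replicate 1.

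Short forms without the LIM domains also exceeded the long forms by TPM in other PDZ-LIM genes. In Pdlim5 they held 87.3% in replicate 2 and 88.1% in replicate 1, against 12.4% in replicate 2 and 11.7% in replicate 1 for the long forms, and the other quantification gave 88.3% in replicate 2 and 89.1% in replicate 1 for the short forms. In Pdlim1 the short form held 48.5% in replicate 2 and 51.8% in replicate 1, and the long form 10.9% in replicate 2 and 11.7% in replicate 1. Pdlim1 transcripts not annotated as protein-coding held 40.5% in replicate 2 and 36.5% in replicate 1. By expected counts the Pdlim1 forms were nearly level. The short form held 35.1% in replicate 2 and 37.1% in replicate 1, and the long form 33.0% in replicate 2 and 34.9% in replicate 1. In Pdlim7 the short forms held 51.9% in replicate 2 and 50.5% in replicate 1, and the long forms 30.4% in replicate 2 and 34.4% in replicate 1. The annotated short transcripts of Pdlim1 and Pdlim7 are 692 and 899 bases long, and by expected counts the long forms of Pdlim7 led instead, with 40.2% in replicate 2 and 43.4% in replicate 1, against 34.3% in replicate 2 and 31.9% in replicate 1 for the short. In the other quantification the short form of Pdlim1 held 35.7% in replicate 2 and 39.4% in replicate 1, and that of Pdlim7 36.2% in replicate 2 and 37.7% in replicate 1. There the Pdlim1 transcripts not annotated as protein-coding held 56.3% in replicate 2 and 51.5% in replicate 1. By the counts of that quantification the long form of Pdlim1 led, with 34.1% in replicate 2 and 38.0% in replicate 1. Its short form held 24.2% in replicate 2 and 26.0% in replicate 1 of those counts. Pdlim3 was of the short-form exon type, with 81.9% in replicate 2 and 86.5% in replicate 1 for the 316-codon form. Its 364-codon form held 4.80% in replicate 2 and 3.85% in replicate 1, and in the other quantification 10.2% in replicate 2 and 7.92% in replicate 1.

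For Capzb the quantifications disagreed. The beta1 form, whose protein is the Z-disc form, held 37.1% in replicate 2 and 39.7% in replicate 1 in the first quantification, and forms ending in the beta2 exon, known from cell junctions, held 16.2% in replicate 2 and 19.2% in replicate 1. In the other quantification the beta1 form held 23.4% in replicate 2 and 23.3% in replicate 1, and forms with the beta2 exon 49.8% in replicate 2 and 52.4% in replicate 1. That reversal came with Capzb-201, the transcript with the beta3 start and the beta2 exon, which held 4.69% in replicate 2 and 5.07% in replicate 1 in the first quantification and 48.5% in replicate 2 and 50.5% in replicate 1 in the other. The order of beta1 and beta2 in these hearts is therefore not settled by these tables. The transcript with the highest mean share in the first quantification, Capzb-209, is a 388-base annotation with 41.2% in replicate 2 and 36.8% in replicate 1 by TPM and a mean of 10.9% by counts, and in replicate 1 Capzb-203 was ahead of it with 39.7%.

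Nebl and Palld have alternative starts. Nebl transcripts from the nebulette start held 53.3% in replicate 2 and 51.7% in replicate 1, and the Lasp2 transcript from the far upstream start, which encodes a LIM-domain protein of 270 codons, held 9.59% in replicate 2 and 8.61% in replicate 1. In the other quantification these were 58.4% in replicate 2 and 55.9% in replicate 1 for nebulette and 4.11% in replicate 2 and 3.96% in replicate 1 for Lasp2. A 436-base non-coding transcript, Nebl-208, held 26.3% in replicate 2 and 27.0% in replicate 1 by TPM and a mean of 2.85% by counts. Palld transcripts from the long start held 71.7% in replicate 2 and 72.6% in replicate 1. Palld-202, from the short start, held 21.4% in replicate 2 and 21.8% in replicate 1. The other quantification gave 75.1% in replicate 2 and 78.2% in replicate 1 for the long start. There Palld-202 held 6.55% in replicate 2 and 9.54% in replicate 1. In that quantification the 2 transcripts within 500 bases of the short start together held 14.85% in replicate 2 and 14.95% in replicate 1.

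In Synpo2l the balance of starts differed between the libraries. Transcripts from the upstream promoter printed above encode the long protein (CHAPa in the mouse, which has a PDZ domain), and the transcript from the downstream promoter encodes the short protein of 749 codons (CHAPb, known from embryonic muscle). The downstream start held 51.6% in replicate 2 and 65.9% in replicate 1, and the upstream start 48.4% in replicate 2 and 34.1% in replicate 1. In the other quantification the downstream start held 43.7% in replicate 2 and 58.3% in replicate 1. The lower share in replicate 2 thus appeared in both quantifications, and with 1 library per animal it has no replicate check. Both promoters held a MEF2 match.

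Fhl2 used both promoters printed above. The transcript from the downstream start, Fhl2-201, held 61.6% in replicate 2 and 59.97% in replicate 1, and transcripts from the upstream start 38.4% in replicate 2 and 40.0% in replicate 1. The annotated proteins of Fhl2-201 and Fhl2-202 are both 279 codons long, so the annotated protein length was the same from either start. The other quantification gave 54.3% in replicate 2 and 51.0% in replicate 1 for the downstream start. For Fhl1, the transcript with an extra coding exon, Fhl1-203, held 3.07% in replicate 2 and 2.82% in replicate 1 in the first quantification but 28.1% in replicate 2 and 25.9% in replicate 1 in the other.

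**Figure D5:**
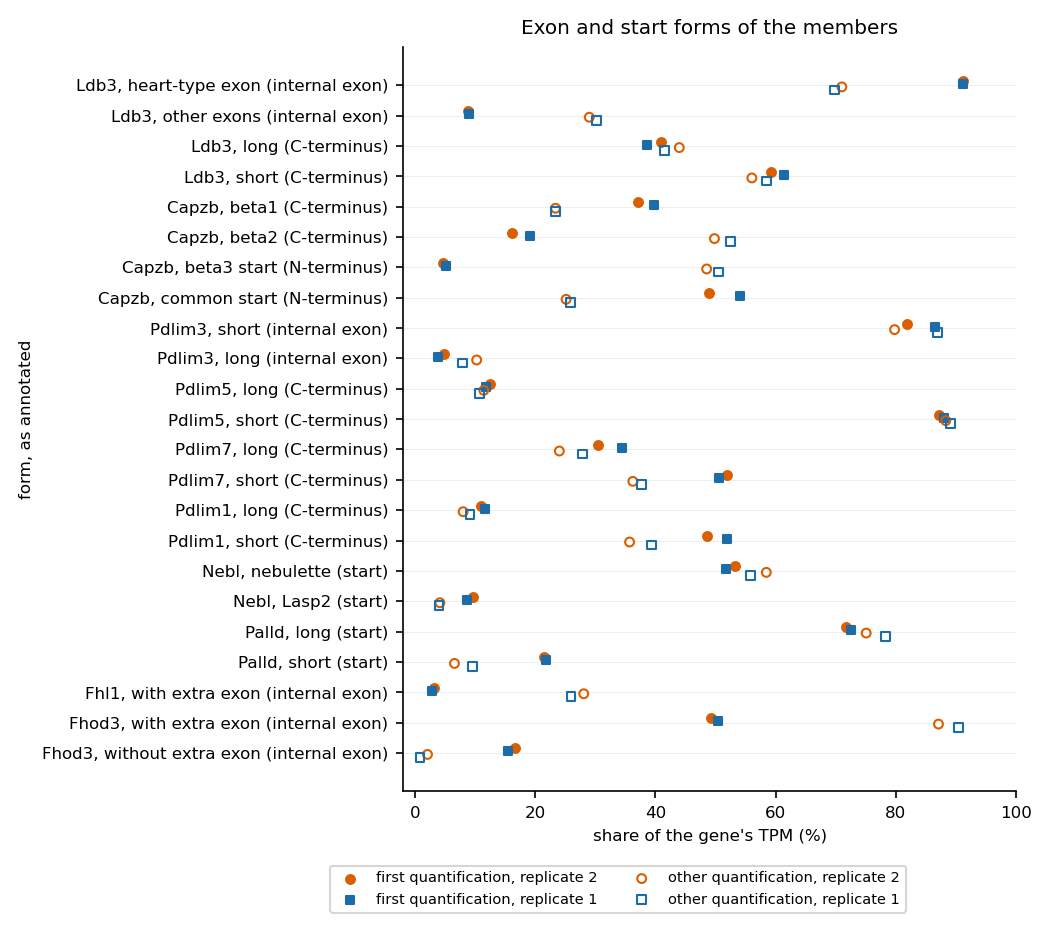
Share of each gene's TPM held by exon or start forms, in the first quantification (filled) and the other quantification (open), replicate 2 as circles and replicate 1 as squares. Libraries lie close together within a quantification, for example 91.2% in replicate 2 and 91.1% in replicate 1 for the Ldb3 heart-type exon, while quantifications differ most for Capzb, Fhl1 and Fhod3.

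Other members were split between several transcripts. Fhod3 transcripts with a 357-base extra coding exon held 49.2% in replicate 2 and 50.4% in replicate 1, and the transcript without it 16.6% in replicate 2 and 15.4% in replicate 1. In the other quantification the form with the exon held 87.1% in replicate 2 and 90.4% in replicate 1, and the form without it 2.05% in replicate 2 and 0.81% in replicate 1. A 368-base non-coding Fhod3 transcript took 30.5% in replicate 2 and 31.95% in replicate 1 in the first quantification and 0.00% in the other. Nexn was shared by Nexn-201 (607 codons), with 35.3% in replicate 2 and 36.5% in replicate 1, and Nexn-212 (536 codons), with 33.9% in replicate 2 and 39.6% in replicate 1. Nexn-201 led in the other quantification with 52.7% in replicate 2 and 49.2% in replicate 1. Synpo2 was shared by Synpo2-202 (1257 codons), with 50.4% in replicate 2 and 49.7% in replicate 1, and Synpo2-207 (1087 codons), with 36.6% in replicate 2 and 43.8% in replicate 1. Synpo2-207 led in the other quantification with 50.5% in replicate 2 and 52.4% in replicate 1. Cap2-201 held 57.8% of Cap2 in replicate 2 and 58.9% in replicate 1, and in the other quantification 42.9% in replicate 2 and 44.4% in replicate 1. Ankrd1-205 held 46.5% of Ankrd1 in replicate 2 and 47.8% in replicate 1, beside 37.4% in replicate 2 and 28.9% in replicate 1 in transcripts not annotated as protein-coding. Ankrd1-205 was higher in the other quantification, with 88.7% in replicate 2 and 93.5% in replicate 1. Sorbs2 had the most annotated transcripts, 36, and its leading transcript, Sorbs2-220, held 22.3% in replicate 2 and 22.4% in replicate 1, while Sorbs2-208 led in the other quantification. Myot, at low depth, had Myot-201 at 42.9% in replicate 2 and 75.7% in replicate 1, from 220 counts in replicate 2 and 279 counts in replicate 1 for the whole gene. For Neb the full-length Neb-202 (7152 codons) held a mean of 62.6% of the counts.

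For Csrp3 and Smpx the leading transcript differed between quantifications. Csrp3-201 and Csrp3-202 both have 194 codons. Csrp3-201 held 98.0% in both libraries in the first quantification and 31.5% in replicate 2 and 43.2% in replicate 1 in the other, where Csrp3-202 held 54.9% in replicate 2 and 44.3% in replicate 1. Smpx was led by Smpx-208 in the first quantification, at 54.7% in replicate 2 and 55.6% in replicate 1, and by Smpx-201 in the other, at 58.2% in replicate 2 and 67.3% in replicate 1. Smpx-201 is not annotated as protein-coding. Such transcripts held 67.8% of Smpx in replicate 2 and 75.6% in replicate 1 in the other quantification. In the first they held 2.83% in replicate 2 and 4.35% in replicate 1. In the first quantification, members with nearly a single form were Actn2 (Actn2-201, 92.7% in replicate 2 and 94.6% in replicate 1), Myoz2 (Myoz2-201, 93.3% in replicate 2 and 93.5% in replicate 1), Mypn, Xirp1, Xirp2, Pdlim4 and Des, and Tcap had 1 annotated transcript. The other quantification gave lower shares for Actn2-201, with 79.04% in replicate 2 and 81.01% in replicate 1, and for Des-201, with 53.9% in replicate 2 and 52.5% in replicate 1, where Des-202, a retained-intron transcript, held 45.4% in replicate 2 and 46.9% in replicate 1. Xirp1-201 held 98.6% in replicate 2 and 97.0% in replicate 1. Flnc-202, which lacks the extra coding stretch of Flnc-201 (2693 against 2726 codons), held 86.2% in replicate 2 and 81.7% in replicate 1. Transcripts not annotated as protein-coding, including retained introns, held 6.73% of the members' TPM in replicate 2 and 6.46% in replicate 1, and 2.58% in replicate 2 and 2.39% in replicate 1 of their counts.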

How the data were processed

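Total RNA of mouse heart was sequenced in 2 libraries, each treated as 1 animal, with group and replicate number from the labels. The authors quantified each library on mm10 with GENCODE M21, per the file headers: a gene and a transcript table come from the first quantification, and a further transcript table from another. For the programs, their versions and any strand setting, the sources used here give nothing. Expected counts in the authors' tables can be fractions where a read fits several genes or transcripts. The deposited tables also hold TPM, which the authors scaled to a fixed sum over all rows, and FPKM, used here as an alternative. Reads of both alleles of the hybrid were assigned to the mm10 reference, and alleles were not separated here. Rows that name no gene (26249) made up 7.91e-06% of the counts of replicate 2 and 1.00e-05% of those of replicate 1 and stayed out of all comparisons.

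Levels are TPM per library and mean ± SD (n = 2). Counts were rounded and scaled by TMM factors of edgeR 4.0.16, with DESeq2 1.42.0 size factors as an alternative. The ratio of replicate 2 over replicate 1 was taken with 0.5 added and an exact 95% Clopper-Pearson interval from SciPy 1.17.1, which covers counting error only, since reads are not independent molecules. The ratio was checked on simulated counts. Pairs are log2 ratios of TPM with 0.1 added. Exons were read from the annotation, and codons are the coding length of a transcript. The other alternatives were TPM, total-count and ERCC scaling, other count, TPM and fold thresholds, each library left out, and coding or longer transcripts only.

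The members, lists, pairs and motifs were chosen with earlier results of these data known. Named are all 35 members, from other lists the pair genes, the 3 highest of a list and those under 1 TPM, and between the animals the members over 1.5-fold and the 3 at each end. Transcripts are named for members whose leading share was under 60% or differed between quantifications, and for a set of muscle genes with known forms. Marker genes, other genes that passed 1.5-fold and the starts of Fhl2 and Synpo2l are named beside their counts, chosen with their values in view. Some genes of the lists and pairs are not reported here and were left out of their counts.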

Additional observations from a re-analysis of the deposited data

How the results depend on the processing

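The median level of the members was 96.6 TPM, 119 TPM in the other quantification, 78.1 on the FPKM scale and 239.9 TPM when rescaled to nuclear protein-coding genes. Their share of all TPM was 0.583%, 0.788% in the other quantification, and 1.45% of nuclear protein-coding TPM. The number detected ran between 29 (at 10 TPM) and 34 (at 0.1 TPM). The median log2 ratio of 0.06 became -0.0503 with total-count scaling, -0.0149 with ERCC scaling and -0.22 on TPM, a shift that all genes shared. The count of members over 1.5-fold was 3 under most count settings, 2 with ERCC scaling, which lost Tcap, and 0 at 2-fold, while total-count scaling lost Tcap and added Synpo2, and on TPM, chosen after seeing the data, it was 5, which lost Tcap and added Synpo2, Pdlim3 and Mypn. Ankrd1 and Neb stayed past 1.5-fold under TMM, DESeq2, total-count and ERCC scaling and in the other quantification. Transcripts not annotated as protein-coding held 6.60% of member TPM and 11.2% in the other quantification. The leading transcript was that of the main table for 29 of 35 members by counts, 34 among coding transcripts and 33 among transcripts of 500 bases or more, an alternative chosen after seeing the data. The cause of the differences between quantifications was not tested. No paired analysis was possible because there was 1 group. Depth limits Ankrd2, Myoz1, Neb, Myot, Fhl3 and Pdlim4, which had at most 515 counts in a library.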

Other observations

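Some members are neighbours in the genome with unlike levels. Myoz1 lies 2405 bases from Synpo2l on the minus strand of chromosome 14 with no gene between them, and the mean level of Synpo2l was 79.6-fold that of Myoz1. Myoz2 and Synpo2 lie 41503 bases apart on chromosome 3, with Myoz2 33.9-fold higher. Sorbs2 and Pdlim3 lie 57554 bases apart on chromosome 8, with Sorbs2 10.9-fold higher. An annotated gene overlapped 16 of the 35 members, on the other strand for 11. Of 33 such genes, 6 held over 1% of the member's count, the highest being Gm43185 on the strand of Nexn with 654 counts in replicate 2 and 407 counts in replicate 1, or 7.49% of the Nexn count. Reads of such overlapping genes cannot be told apart with certainty. The genes of this paragraph were chosen after their values were seen.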
